A study of Mus musculus with 8 samples.

Results

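Nuclear hormone receptors are the subject here: 44 probe sets of 28 genes, out of 12488 probe sets in the value table. Their members were taken by name, among probe sets with a single gene symbol. Symbols of the systematic Nr pattern with a subgroup letter from a to h were taken (17 genes). Thra, Thrb, Esr1, Esr2, Ppara, Ppard, Pparg, Vdr, Pgr, Esrra and Rora were taken as well (11 genes). Nr names with other letters, such as Nr1i3, and the retinoid receptors of the Rar and Rxr families were left out. The groups were lung, which is whole lung, and tips, which are the ends of the secondary septa that subdivide the air sacs, cut from frozen sections by laser capture. All RNA came from C57/Bl6 mice at postnatal day 6, with no treatment or genetic change named in the labels. Each experiment pooled tissue of many mice, experiment 2 used other litters than experiment 1, and each of the 4 RNA samples was hybridised to 2 arrays at different times, which gave 8 arrays in all and 2 RNA samples per group.

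Nuclear receptors are transcription factors that bind DNA through a zinc-finger domain and, in most of the family, a small fat-soluble ligand such as a steroid, thyroid hormone, vitamin D or a fatty acid derivative through a separate domain. Steroid receptors wait in the cytoplasm on heat shock protein chaperones, whereas thyroid hormone, vitamin D and lipid-sensing receptors usually sit on DNA as partners of a retinoid X receptor and exchange corepressors for coactivators when ligand binds. In the lung, glucocorticoid and thyroid hormone govern the timing of maturation and septation, and several orphan receptors, whose ligand is unknown or absent, shape vessels and mesenchyme.

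Signals below are the deposited intensities brought to a common trimmed mean of 1500.9, and a difference is tips minus lung in log2 of the signal plus an offset of 150.09, which understates the change of dim probe sets. The adjusted p is that of limma over the 7453 probe sets tested, with 0.05 as threshold. The error of a difference is its standard error from the same fit, which also draws on the spread of other probe sets. Background was the 95th percentile of 19 bacterial and yeast control probe sets on each array, and it lay between 314.1 and 568.1 on lung arrays and between 486.6 and 1244.2 on tip arrays. The median of 9 spiked-in control probe sets, RNA added in fixed amounts, was 3864 to 9632 in lung and 18178 to 54829 in tips. The ratio of 3′ to 5′ signal of Gapdh, a sign of RNA length, was 5.49, 4.52, 1.95 and 2.37 in lung and 4.18, 7.79, 12.8 and 8.47 in tips. That of b-Actin was 104, 75.3, 42.2 and 38.8 in lung and 139, 23, 83.8 and 53.5 in tips, so it was high in both groups and did not separate them. The part of these ratios and of the spiked-in signal in the results was not tested. Other settings tried include median centring, which gives every array the same median, and a common floor, which raises all signals under the highest background, 1244, to that value. Among the tissue markers, the surfactant gene Sftpc rose in tips by 1.95, and of 6 type II cell markers tested 1 rose and 0 fell. Of 3 type I cell markers tested 0 rose and 1 fell, Hopx, with a difference of -1.76. The contractile gene Tagln rose by 1.97 while Meox2, a mesenchymal homeobox gene, fell by 3.16. Of 9 fibroblast and myofibroblast markers tested 1 rose and 1 fell, and Acta2 gave 0.09 (limma adjusted p = 0.89). Of 5 smooth muscle markers tested 3 rose and 1 fell, Mylk, with a difference of -2.50. Of all genes, each on its brightest probe set, 14.6% rose and 15.1% fell. The airway genes Scgb1a1 and Foxj1 rose by 1.49 and 1.68, both lost with median centring, while Tuba1a, which is also widely expressed, gave -0.67 (limma adjusted p = 0.389). Summed airway marker signal was 237501 to 367673 on lung and 202961 to 263197 on tip arrays with Tuba1a, and 14654 to 24906 and 33328 to 84573 without it, and its part in the results below was not tested.

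Of the 44 receptor probe sets, 21 were bright enough to be tested, and these stood for 16 of the 28 genes. Nr1h3 and Esrra rose in tips and Nr2f2 fell, so that 3 of 21 (14.3%) passed the threshold of limma, where 28.3% of all probe sets tested did. The increases were 2 of 21, against 14.5% of all probe sets, and the decrease was 1 of 21, against 13.7%. Differences were positive for 18 of the 21 and negative for 3, with a median of 0.85, whereas 62.1% of all probe sets tested were positive, with a median of 0.35. With the common floor both medians were 0.13, over 19 receptor probe sets and 6788 in all. A dim probe set could enter the test through its brighter group alone, so these shares and medians are a description of the 21 and not of all members. For 7 of the 21 the unadjusted p was under 0.05, which held for 43.6% of all probe sets tested.

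**Figure D1:**
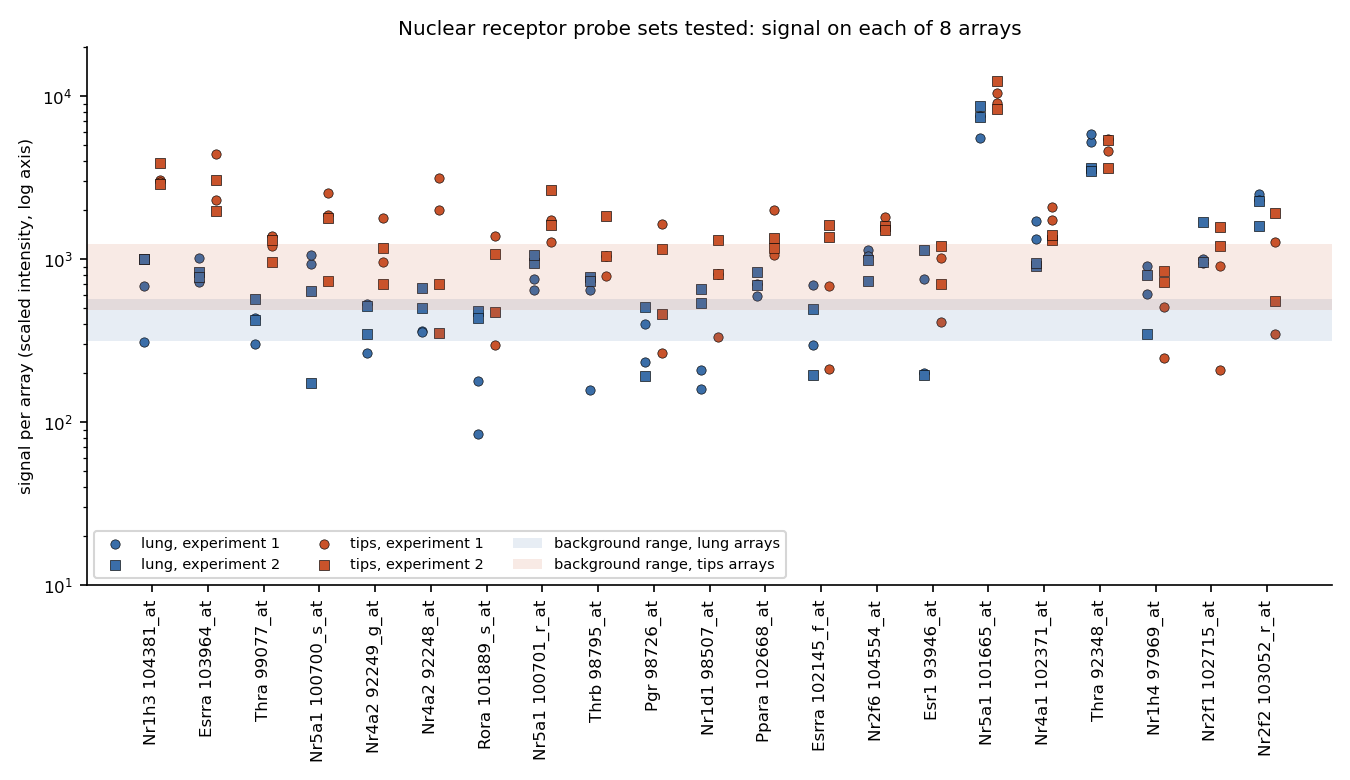
Signal on each array (log axis) for the 21 receptor probe sets tested, ordered by their difference. Lung arrays are blue and tip arrays orange, circles are experiment 1 and squares experiment 2, and bands show the range of background over the 4 arrays of each group, 314.1 to 568.1 for lung and 486.6 to 1244.2 for tips. Nr1h3 and Esrra on the left stand apart between groups, and Nr2f2 on the right is lower in tips on average, with overlap between groups.

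Promoters of the 3 receptors past the threshold are shown, 250 bases before to 50 after an annotated start, from RefSeq with the build GRCm38.p6, to show how unlike they are in letters. Of the 28 receptor genes 25 had an entry in the RefSeq promoter table, with 33 starts in all. Capitals mark matches on either strand to AGGTCA, the core motif to which most nuclear receptors bind, to CACGTG, an E-box, to GGGCGG, a GC box, to CCAAT, or to TGACGTCA, a cyclic AMP response element. None of these motifs overlapped another in the windows shown.
Esrra, chr19:6921759-6922058, minus strand: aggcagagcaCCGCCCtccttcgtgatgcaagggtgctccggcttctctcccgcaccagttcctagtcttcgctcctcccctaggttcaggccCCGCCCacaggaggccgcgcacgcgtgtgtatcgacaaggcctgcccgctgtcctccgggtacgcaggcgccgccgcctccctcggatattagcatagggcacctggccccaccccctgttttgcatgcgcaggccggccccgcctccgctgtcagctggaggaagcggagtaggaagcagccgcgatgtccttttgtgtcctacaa
Nr1h3, chr2:91195067-91195366, minus strand: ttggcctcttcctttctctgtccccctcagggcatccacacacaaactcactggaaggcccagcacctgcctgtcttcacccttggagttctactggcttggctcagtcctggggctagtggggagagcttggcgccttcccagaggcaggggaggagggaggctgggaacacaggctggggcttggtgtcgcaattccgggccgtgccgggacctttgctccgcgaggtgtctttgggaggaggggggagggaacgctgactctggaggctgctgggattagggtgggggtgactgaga
Nr2f2, chr7:70366697-70366996, minus strand: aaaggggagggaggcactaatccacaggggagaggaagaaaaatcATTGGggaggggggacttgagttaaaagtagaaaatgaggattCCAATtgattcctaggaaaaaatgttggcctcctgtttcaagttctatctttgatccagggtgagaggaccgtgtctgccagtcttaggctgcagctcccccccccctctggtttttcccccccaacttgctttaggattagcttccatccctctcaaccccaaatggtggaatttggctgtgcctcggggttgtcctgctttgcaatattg
The Esrra window held 2 GC box matches and a GC content of 66%, the Nr2f2 window 2 CCAAT matches and 49.7%, and the Nr1h3 window none of the 5 motifs and 63%. Over all 32851 promoter windows the median GC content was 52.7%, a GC box stood in 35.7% and a CCAAT match in 37.4%. AGGTCA was found at 8 of the 33 receptor starts (24.2%), those of Nr0b1, Nr1d2, Nr1h4, Nr5a2, Nr6a1, Pparg and Thrb, and in 16.3% of all windows. CACGTG stood in 9.09% of receptor windows and 7.15% of all, GGGCGG in 45.5% of receptor windows, CCAAT in 36.4%, and TGACGTCA in 3.03% against 1.79%.

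Among the lipid sensors, Nr1h3, which encodes the oxysterol receptor LXR alpha that switches on cholesterol export and fatty acid synthesis, showed the largest difference of the 21 probe sets. Its signal in lung was 682 and 312 on the arrays of experiment 1 and 998 and 1005 in experiment 2. In tips it was 3063 and 2969 and then 2899 and 3867. All tip arrays lay above all lung arrays, and 1 of the 4 lung arrays was not above background. The mean rose from 749 ± 357 to 3199 ± 259 (SD, n = 2 RNA samples), a log2 difference of 1.98 ± 0.39 (limma adjusted p = 0.00789), or 1.63 relative to the median of all probe sets. It was 2.35 in experiment 1 and 1.60 in experiment 2, and 1.68 on the first arrays alone and 2.28 on the second. Of 27 other settings, 26 kept the call, and without the lung RNA of experiment 1 the difference was 1.53 (adjusted p = 0.101). Macrophages are a known site of this receptor. Of 9 macrophage marker genes, 6 were tested, 0 rose and 2 fell: Ctss fell by 3.05 and Mrc1 fell by 1.62, where 15.1% of all genes fell. Cd68, Csf1r and Itgax gave 0.72, 0.61 and 0.59 and did not pass, and the median of the list was -0.02. Summed signal was 31477 to 49729 on lung and 9503 to 12529 on tip arrays with Ctss, and 4739 to 6887 and 6083 to 7344 without it. Marco and Itgam were under background on every array, and the part of macrophages in the result was not tested.

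Nr1h4, the bile acid receptor FXR of liver and gut, did not pass the threshold, with a difference of -0.18 ± 0.48 (limma adjusted p = 0.794). Lung arrays read 608 and 904 in experiment 1 and 803 and 347 in experiment 2, and tip arrays 248 and 511 and then 844 and 722. The experiments had opposite signs, -0.80 and 0.44, and the tip arrays were above background on 1 of 4.

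Ppara encodes the fatty acid receptor that drives mitochondrial and peroxisomal fat oxidation. On lung arrays it gave 699, 594, 836 and 694, and on tip arrays 1065, 2001, 1341 and 1166. Each tip array was thus brighter than each lung array, but the difference of 0.82 ± 0.37 did not pass (limma adjusted p = 0.125), and it was 0.28 with median centring. Ppard, a fatty acid receptor found in most tissues, and Pparg, the receptor of fat cell formation that is also known in lung lipofibroblasts and alveolar macrophages, were under background on all 8 arrays and have no fold. Ppard read 28.7 to 180 in lung and 92.9 to 347 in tips, and Pparg 27.5 to 309 and 33.0 to 103.

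Vdr, the vitamin D receptor, was represented by a pair of probe sets, neither bright enough to be tested. The brighter one read 109, 233, 43.4 and 42.6 on lung arrays and 407, 1524, 734 and 175 on tip arrays. It was above background on 0 of 4 lung and 2 of 4 tip arrays, so no lower limit of a fold is given. The dimmer one was under background on all arrays, with means of 237 ± 49.9 in lung and 239 ± 22.6 in tips.

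Of the thyroid hormone receptors, Thra encodes the form that predominates outside the liver and Thrb the form of liver, pituitary and inner ear. The brighter of 2 probe sets of Thra read 5212, 5852, 3623 and 3453 on lung arrays and 5468, 4574, 3642 and 5379 on tip arrays, a difference of 0.09 ± 0.32 (limma adjusted p = 0.855) that was -0.14 in experiment 1 and 0.31 in experiment 2. In the RefSeq annotation of GRCm38.p6, the gene ends of Thra and of Nr1d1 overlap, and which part of Thra each probe set reads is not given in the sources used here.

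The dimmer probe set of Thra gave 300 and 435 on the lung arrays of experiment 1 and 567 and 422 in experiment 2, against 1204 and 1382 and then 1303 and 956 in tips. All tip arrays lay above all lung arrays and 2 of the 4 lung arrays were not above background. The mean was 431 ± 89.6 in lung and 1211 ± 116 in tips (SD, n = 2), and the difference of 1.24 ± 0.41 did not pass (limma adjusted p = 0.051). It passed under 5 of 27 other settings and was 0.70 with median centring (adjusted p = 0.257). Thrb gave 648, 158, 779 and 730 on lung arrays and 793, 1052, 1042 and 1830 on tip arrays. Its groups did not overlap either, at 0.93 ± 0.46 (limma adjusted p = 0.150), 1.10 in experiment 1 and 0.76 in experiment 2, and without array 2 of the lung RNA of experiment 1, the lowest, the difference was 0.59.

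Nr1d1 and Nr1d2 encode the REV-ERB repressors of the circadian clock and Rora an activator at the same DNA elements. Nr1d1 differed between the experiments in level: it read 159 and 209 in lung of experiment 1 and 539 and 659 in experiment 2, and 332 and 815 and then 1319 and 814 in tips. Within each experiment every tip array lay above every lung array. The differences were 1.04 in experiment 1 and 0.67 in experiment 2, but the 0.85 ± 0.56 in all did not pass (limma adjusted p = 0.262). Nr1d2, too dim to be tested, went opposite ways, with -1.62 in experiment 1 and 0.20 in experiment 2. Its signals were 490, 762, 417 and 369 on lung arrays and 116, 82.9, 409 and 542 on tip arrays, none of the latter above background. Rora at its brighter probe set gave 1.06 ± 0.54 (limma adjusted p = 0.160), with 84.1, 179, 481 and 433 on lung and 299, 1391, 477 and 1072 on tip arrays, and the groups overlapped. Its other probe set was under background throughout.

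Among the oestrogen-related receptors, Esrra encodes an orphan receptor that, with the coactivator PGC-1 alpha, drives mitochondrial genes. Its brighter probe set read 723 and 1012 in lung of experiment 1, with both arrays of experiment 2 between these values, and 2302 and 4419 and then 1963 and 3073 in tips. Every array was above background and every tip array lay above every lung array. The mean rose from 834 ± 46.7 to 2939 ± 596 (SD, n = 2), a difference of 1.59 ± 0.34 (limma adjusted p = 0.0104), with 1.73 in experiment 1 and 1.46 in experiment 2. On the first arrays alone it was 1.30 (adjusted p = 0.0655) and on the second 1.89. Of 27 other settings 22 kept the call. It was 1.64 when lung RNA from experiment 1 was left out (adjusted p = 0.101) and 1.55 when that from experiment 2 was (0.0966), and median centring and the common floor gave 1.05 and 1.08, with 0.0523 and 0.0521.

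The dimmer probe set of Esrra, whose name marks probes that other transcripts can share, went opposite ways in the experiments. It gave 299, 691, 492 and 195 on lung arrays and 688, 211, 1366 and 1627 on tip arrays, with -0.16 in experiment 1 and 1.80 in experiment 2 and 0.82 ± 0.58 in all (limma adjusted p = 0.296). Without the tip RNA of experiment 1 it passed, at 1.61.

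The classical steroid receptors were near or under background. Esr1, oestrogen receptor alpha, was tested at 1 of its 4 probe sets, which read 754, 201, 195 and 1135 on lung and 1020, 411, 705 and 1202 on tip arrays. The spread within lung was wider than the difference of 0.61 ± 0.44 (limma adjusted p = 0.308), and its other 3 probe sets were under background on every array. Esr2, oestrogen receptor beta, was under background on every array, with means of 146 ± 137 in lung and 378 ± 319 in tips. Pgr, the progesterone receptor, gave 398, 235, 511 and 193 on lung and 264, 1649, 461 and 1150 on tip arrays, and its difference of 0.91 ± 0.45 (limma adjusted p = 0.154) rested on the second arrays. On these it was 2.07 and passed (adjusted p = 0.0397), and on the first arrays it was -0.26. Nr3c1, the glucocorticoid receptor, which mice need for lung maturation, was under background on all 8 arrays at its single probe set, with 222, 52.6, 181 and 147 on lung and 91.8, 857, 321 and 446 on tip arrays.

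**Figure D2:**
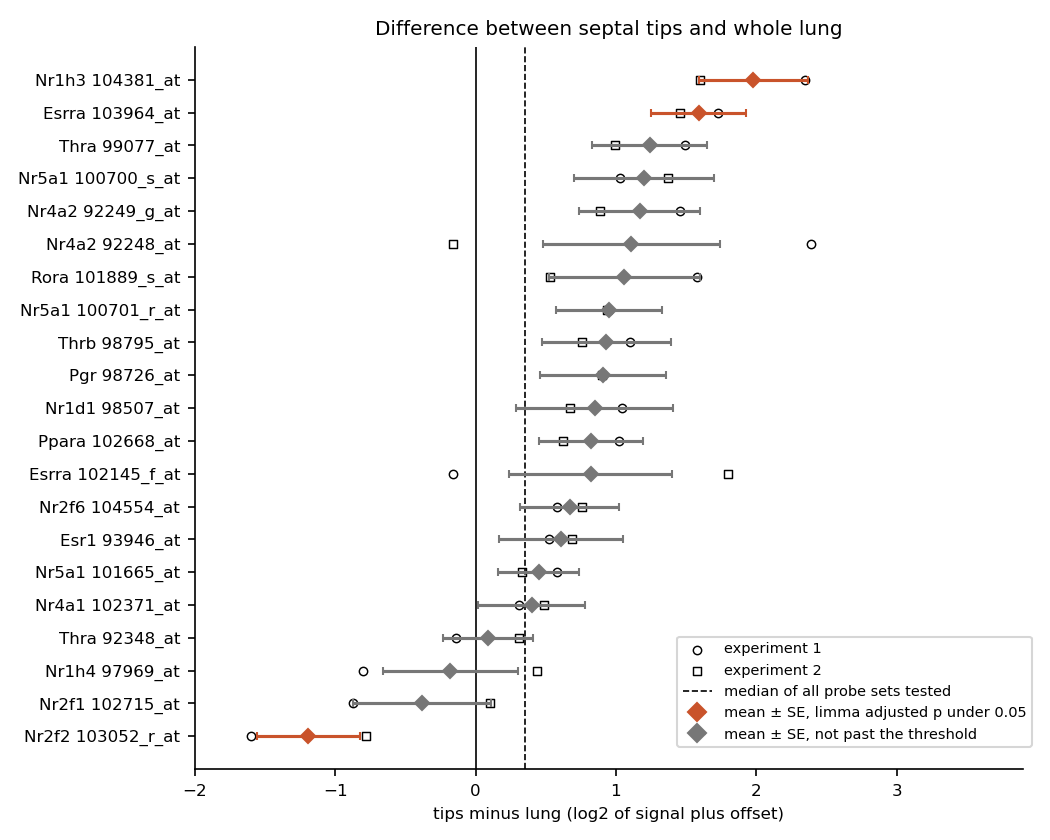
Difference of tips minus lung (log2 of signal plus offset) for the 21 receptor probe sets tested. Diamonds are the difference of means over 2 RNA samples per group. Bars are its standard error from limma, which also draws on the spread of other probe sets. Open circles and squares are experiments 1 and 2, and the dashed line is the median of all probe sets tested, 0.35. Nr1h3 (1.98), Esrra (1.59) and Nr2f2 (-1.19), in orange, passed limma's threshold, and 5 probe sets had opposite signs in the experiments.

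The COUP transcription factors Nr2f1, Nr2f2 and Nr2f6 are orphan receptors, of which Nr2f2 specifies veins and lymphatics and is also found in mesenchyme. The brighter probe set of Nr2f2, whose name marks probes chosen under relaxed design rules, gave 2508 and 2294 on the lung arrays of experiment 1 and 2272 and 1601 in experiment 2. In tips it gave 345 and 1282 and then 1908 and 551. The groups overlapped, since the tip array at 1908 lay above the lung array at 1601 of the same experiment. On 2 of the 4 tip arrays the signal was not above background. The mean fell from 2169 ± 328 to 1021 ± 294 (SD, n = 2), a difference of -1.19 ± 0.37 (limma adjusted p = 0.0406), with -1.60 in experiment 1 and -0.78 in experiment 2. The call was kept under 13 of 27 other settings, among them quantile normalization (-1.53), median centring (-1.73) and cyclic loess (-1.54). Among the settings that lost it were the first arrays alone (-1.33, adjusted p = 0.186), the second alone (-1.05, 0.163), no filter on dim probe sets (0.0631), the common floor (-0.57, 0.138), and leaving out lung RNA from experiment 1 (-1.03, 0.345) or from experiment 2 (-1.34, 0.199).

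Nr2f2 is itself on the list of large vessel endothelial markers. Of the other 3 genes tested there 0 rose and 2 fell, where 15.1% of all genes fell: the adhesion molecule gene Vcam1 fell by 2.38 and the arterial ephrin gene Efnb2 fell by 1.74, while another probe set of Vcam1 gave 1.30 (limma adjusted p = 0.0533) and Vwf gave 0.56 (limma adjusted p = 0.180). Without Nr2f2 their summed signal was 27144 to 39652 on lung and 13882 to 18325 on tip arrays, and 28745 to 42160 and 14227 to 20233 with it, Selp and Ackr1 were under background on every array, and their part in the result was not tested. Of 11 general endothelial markers tested, 6 rose and 2 fell, against 14.6% and 15.1% of all genes, with a median of 1.20. Icam2 and Ptprb rose by 1.64 and 1.90, while Tek and Emcn fell by 1.72 and 1.64. The summed signal of the 11 was 110111 to 155696 on lung and 378614 to 390588 on tip arrays. Most of it came from Eng, with means of 77511 in lung and 299413 in tips. The call of Eng was lost with median centring and with the common floor. In such bulk RNA, fewer cells of a type and less RNA per cell cannot be told apart. The other probe set of Nr2f2 was under background on 7 of 8 arrays, with -0.12 in experiment 1 and 1.00 in experiment 2.

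Nr2f1 gave 951, 998, 962 and 1680 on lung and 208, 906, 1577 and 1208 on tip arrays, a difference of -0.38 ± 0.49 that did not pass (limma adjusted p = 0.571). Tips were low on the arrays of experiment 1 (-0.87) and level with lung in experiment 2 (0.10). Nr2f6, which represses cytokine genes in T cells, was above background on all arrays, with 1133, 1041, 730 and 991 on lung and 1807, 1605, 1596 and 1507 on tip arrays. Its groups did not overlap, and the difference of 0.67 ± 0.35 did not pass (limma adjusted p = 0.172). The testicular receptors Nr2c1 and Nr2c2, orphan repressors, were too dim to be tested. Nr2c2 was under background on every array at both probe sets, and Nr2c1 was above it on 1 lung array.

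Nr4a1 and Nr4a2 encode orphan receptors induced within the hour as immediate early genes. Nr4a1 was above background on all arrays, with 1328, 1723, 909 and 943 on lung and 2086, 1739, 1308 and 1414 on tip arrays, and its difference of 0.40 ± 0.38 (limma adjusted p = 0.447) was close to its error and changed sign with quantile normalization and median centring. The brighter probe set of Nr4a2 was high in tips of experiment 1, at 3145 and 2004, and not in experiment 2, at 699 and 353, where lung gave 361 and 357 and then 505 and 664. The differences were 2.39 and -0.16, and 1.11 ± 0.63 in all (limma adjusted p = 0.203). The dimmer one gave 533, 267, 514 and 345 on lung and 958, 1799, 1171 and 700 on tip arrays. These groups did not overlap, at 1.17 ± 0.43 (limma adjusted p = 0.0664). Of 10 tested immediate early genes that are induced together with this family, 1 rose and 1 fell, with a median of 0.14. These counts were near the shares of all genes, 14.6% and 15.1%. Ier2 rose by 0.92 and Fos fell by 1.42.

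Nr5a1, steroidogenic factor 1 of adrenal and gonad, had 5 probe sets, all positive in both experiments, and none of those tested passed the threshold. The lung mean was 7300 at the brightest and 248 to 853 at the others, and whether the brightest reads Nr5a1 was not tested. The brightest read 5556, 7542, 7415 and 8687 on lung and 9073, 10425, 8306 and 12399 on tip arrays, a difference of 0.45 ± 0.29 (limma adjusted p = 0.255). It passed with quantile normalization (0.98) and cyclic loess (1.01) and was -0.09 with median centring. The next gave 0.95 ± 0.38 (limma adjusted p = 0.0873), with lung arrays between 644 and 1062 and tip arrays between 1276 and 2636. The third gave 1.20 ± 0.50 (limma adjusted p = 0.0974), and with experiment number as block its adjusted p was 0.0431. The name of the third marks probes that several transcripts share, and the names of the second and of the dimmest mark probes chosen under relaxed design rules. Of the untested pair, the brighter was under background on every lung array and above it on 2 tip arrays. The dimmer, with means of 248 ± 17.2 in lung and 507 ± 275 in tips, was above background on 2 lung arrays and 0 tip arrays.

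Nr5a2, the liver receptor homologue of bile acid synthesis, Nr6a1, the germ cell nuclear factor, and the atypical receptors Nr0b1 and Nr0b2, which lack a DNA-binding domain and repress other receptors, were too dim to be tested. The brighter probe set of Nr5a2 read 495, 580, 67.1 and 89.0 on lung and 801, 801, 531 and 616 on tip arrays. The groups overlapped, since lung of experiment 1 was near tips of experiment 2. The dimmer one was under background on every array, with means of 52.4 ± 22.1 and 371 ± 8.1. The brighter probe set of Nr0b1 was under background on every lung array and above it on 2 tip arrays, whereas its other probe set was above background on 1 lung array and no tip array. Nr6a1 had means of 360 ± 38.2 in lung and 284 ± 57.8 in tips, and Nr0b2, at 159 ± 19.8 and 290 ± 0.5, was under background on every array.

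Across the family, all 4 tip arrays lay above all 4 lung arrays at 8 of the 21 tested probe sets (38.1%), those of Nr1h3, Esrra, Thra, Thrb, Ppara, Nr2f6, Nr4a2 and Nr5a1, and the reverse held for 0. Over all probe sets tested these shares were 24.1% and 18%. Median intensity as deposited was 501.1 to 571.95 on lung arrays and 786.65 to 924.1 on tip arrays. The part of this shift in the counts was not tested. With the common floor the differences of the 8 probe sets, in the order named, were 1.26, 1.08, 0.05, 0.13, 0.18, 0.35, 0.12 and 0.45. With dim probe sets included, 10 of 44 receptor probe sets had all tip arrays higher, against 22.1% of every probe set, and 0 had all lung arrays higher, against 11.2%. The experiments had the same sign at 16 of 21, of which 15 were positive and 1, Nr2f2, negative. In 6 genes, Esr2, Nr0b2, Nr2c2, Nr3c1, Ppard and Pparg, every probe set was under background on every array, and 7 probe sets were above it on all 8 arrays.

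**Figure D3:**
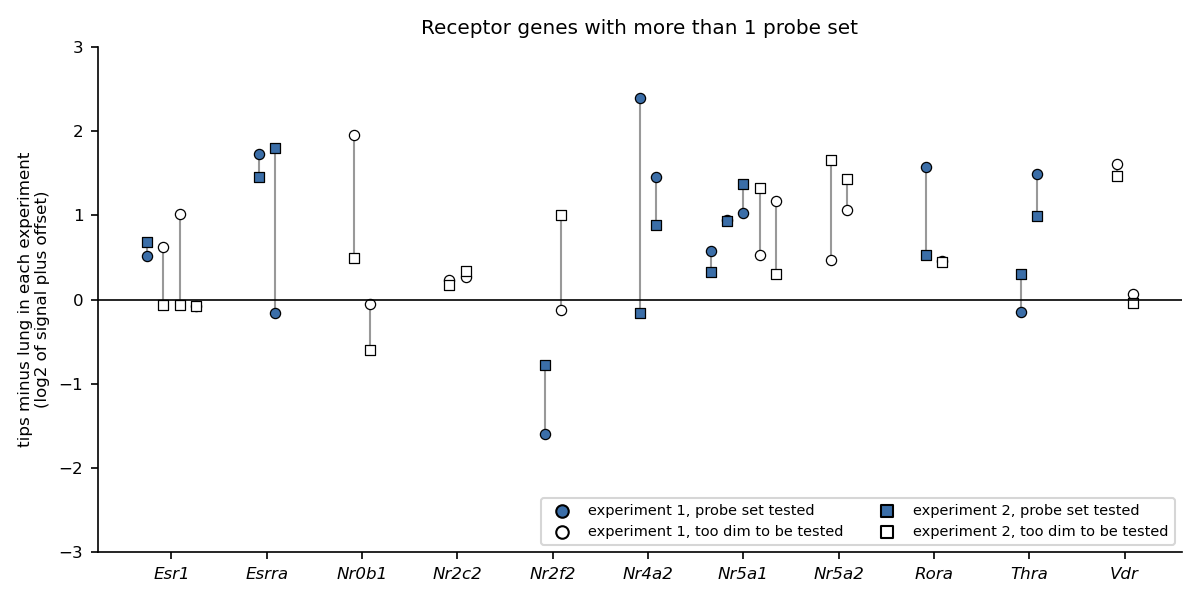
Difference of tips minus lung in experiment 1 (circles) and experiment 2 (squares) for the 11 receptor genes with more than 1 probe set; each vertical line joins the experiments of 1 probe set, and open symbols are probe sets too dim to be tested. Thra gives 1.49 and 0.99 at one tested probe set and -0.14 and 0.31 at another; open symbols mostly rest on signal under background.

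Genes that work with the receptors were set beside them, each on its brightest probe set, where 29.7% of all 5642 genes passed, 14.6% as increases and 15.1% as decreases, with a median of 0.31. The retinoid X receptors are the shared partners of thyroid hormone, vitamin D, PPAR and LXR receptors. Rxrb rose by 1.31 ± 0.35, from a signal of 4817 ± 1671 to 10814 ± 572 (SD, n = 2; limma adjusted p = 0.0246). Rxra gave 0.69 ± 0.32 (limma adjusted p = 0.131), and Rxrg was under background throughout. Nr1i3, the xenobiotic receptor CAR, which falls outside the name rule, rose by 1.18 ± 0.32 (limma adjusted p = 0.0265), and 0.90 and 0.92 at its other probe sets did not pass.

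Coactivators add acetyl or methyl groups to histones or bridge to the polymerase. Of 15 tested, 2 rose and 2 fell, with a median of 0.25. The acetyltransferase gene Kat2b fell by 3.33, from 17721 ± 2102 to 1704 ± 775 (SD, n = 2; limma adjusted p = 0.00105), and under each of the 27 other settings, and Pnrc2 fell by 1.71. Med12, of the Mediator complex, and the arginine methyltransferase gene Carm1 rose by 1.19 and 1.17, neither with quantile normalization, median centring or cyclic loess. The p160 genes Ncoa1 and Ncoa3 gave 0.17 and 0.25 and Ppargc1a, the coactivator of Esrra, 0.64 ± 0.63 (limma adjusted p = 0.456).

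Corepressors and their deacetylases silence unliganded receptors. Of 12 tested, 4 rose and 2 fell, with a median of 0.30. Hdac3, the deacetylase of the NCoR complex, was under background on every lung array and at least 3.66-fold brighter in tips (limma adjusted p = 0.00900), while Tbl1xr1, another subunit of that complex, was under background on every tip array and at least 2.79-fold brighter in lung (limma adjusted p = 0.00487). Tcf25 and Phb2 rose by 2.19 and 1.99, and of the related deacetylases Hdac1 rose by 2.20 while Hdac2 fell by 1.38.

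Chaperones hold steroid receptors ready for ligand. Of 11 tested, 2 rose and 3 fell, with a median of -0.13. Dnaja1, an Hsp40 protein, fell from 30600 ± 1519 to 3718 ± 449 (SD, n = 2; limma adjusted p = 0.000941), the cyclophilin gene Ppid fell by 2.45 and the Hsp90 gene Hsp90aa1 fell by 2.16. Cdc37 and Fkbp1a rose by 1.58 and 1.05. Fkbp4 gave -0.24 (limma adjusted p = 0.691), and Fkbp5, which is also a glucocorticoid target, was under background on every array.

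Among 10 tested genes of hormone synthesis and breakdown, 2 rose and 1 fell, with a median of 0.81. Hsd17b10, a mitochondrial dehydrogenase of steroids and fatty acids, rose by 2.37 and Hsd3b7, of bile acid synthesis, by 1.27, while Hsd17b12 fell by 1.83. Hsd11b1, which makes active glucocorticoid from its inert form, gave 1.01 ± 0.38 (limma adjusted p = 0.0744), and Dio2, which activates thyroid hormone, 0.85 ± 0.49 (limma adjusted p = 0.211).

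Known targets of the receptors did not move one way. Of 17 glucocorticoid targets tested, 2 rose and 3 fell, with a median of 0.19: the annexin gene Anxa1 fell by 2.64 (-2.27 and -0.41 at other probe sets, of which the second did not pass), the kinase gene Sgk1 by 2.28 and Errfi1 by 1.49, Mt2 rose by 1.03, and Cdkn1a was under background on every lung array and at least 3.85-fold brighter in tips (limma adjusted p = 0.00538), with 0.99 (limma adjusted p = 0.172) at its other probe set. Of 9 thyroid hormone targets, 0 rose and 2 fell, with a median of 0.66. Me1, malic enzyme, was under background on every tip array and at least 7.02-fold brighter in lung (limma adjusted p = 0.00111), and the calcium pump gene Atp2a2 fell by 2.15.

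The PPAR targets held 12 tested genes, of which 0 rose and 4 fell, with a median of -0.49. Lpl, lipoprotein lipase, fell by 2.48, from 8453 ± 161 to 1525 ± 486 (SD, n = 2; limma adjusted p = 0.00193), the desaturase gene Scd1 by 1.49, and Acadm and Cpt1a, of mitochondrial fat oxidation, by 1.36 and 1.14. Other probe sets of Lpl and Scd1 did not pass, at -0.38 for Lpl and -0.59 and 0.03 for Scd1. Lpl and Scd1 also count among 8 tested targets of LXR and FXR, of which 1 rose and 3 fell, with a median of 0.09. The cholesterol exporter gene Abca1, a direct LXR target, fell by 2.13, from 5168 ± 320 to 1390 ± 296 (SD, n = 2; limma adjusted p = 0.00405), while Fasn rose by 0.92. Srebf1 gave 1.28 ± 0.43 (limma adjusted p = 0.0506) and Abcg1 0.26 ± 0.29 (limma adjusted p = 0.521), so that genes of this list lay on both sides while Nr1h3 itself rose.

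Of 12 tested targets of oestrogen and oestrogen-related receptors, 2 rose and 0 fell, with a median of 0.62: Sdhb, a subunit of succinate dehydrogenase, by 2.05 and the trefoil factor gene Tff1 by 1.57. The 12 include Pgr, itself a member of the family, which gave 0.91 and did not pass. Among 11 tested clock genes, 3 rose and 1 fell, with a median of -0.20. Csnk1e, the kinase of the period proteins, was under background on every lung array and at least 3.84-fold brighter in tips (limma adjusted p = 0.00353), Dbp and Per3 rose by 1.42 and 1.10, and Clock fell by 1.83. Arntl, a target that REV-ERB proteins repress, gave -0.30 ± 0.38 (limma adjusted p = 0.567). Of the increases named here for genes that are not members, those of Rxrb, Nr1i3, Med12, Carm1, Cdc37, Fkbp1a, Hsd3b7, Mt2, Fasn, Dbp, Per3, Ier2, Scgb1a1, Foxj1 and Eng did not pass with median centring. Of the decreases, those of Cpt1a, Errfi1, Scd1, Efnb2 and Hopx did not pass with quantile normalization or cyclic loess. With the common floor the calls of Atp2a2, Carm1, Cdc37, Cdkn1a, Cpt1a, Csnk1e, Dbp, Efnb2, Eng, Fasn, Fkbp1a, Fos, Hdac1, Hdac3, Hsd17b10, Ier2, Med12, Mrc1, Mylk, Nr1i3, Per3, Phb2, Ppid, Rxrb, Scgb1a1, Sdhb, Tbl1xr1 and Tcf25 were lost.

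**Figure D4:**
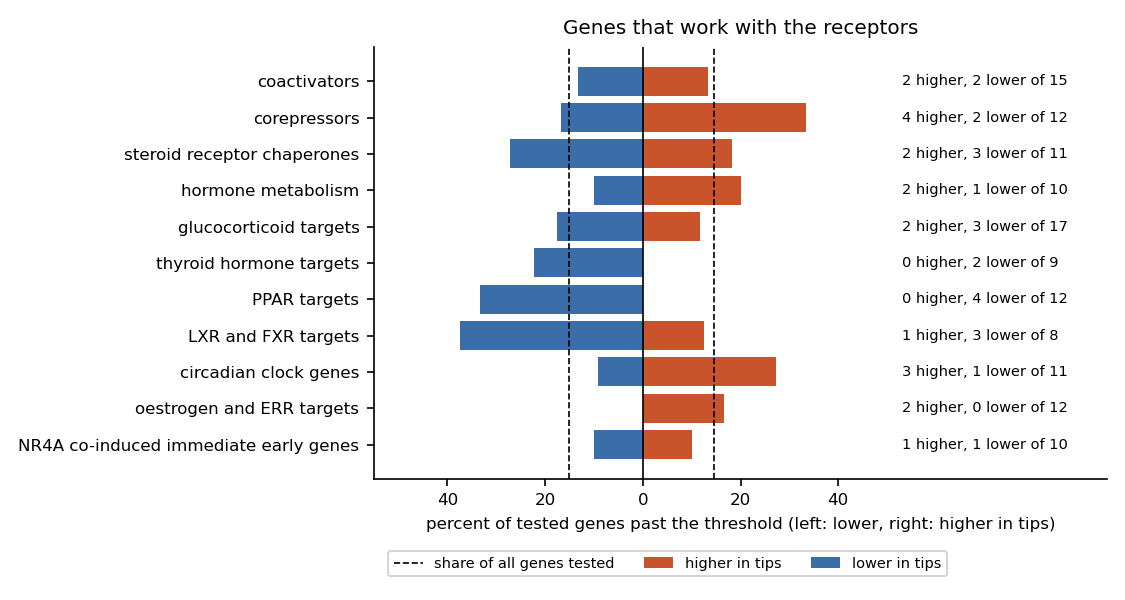
Share of tested genes past limma's threshold in 11 lists of genes that work with the receptors, as percent higher in tips (orange, to the right) and lower in tips (blue, to the left), with the counts beside each bar. Dashed lines are the shares over all 5642 genes tested, 14.6% higher and 15.1% lower; the PPAR targets hold 4 decreases of 12 and no increase.

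**Figure D5:**
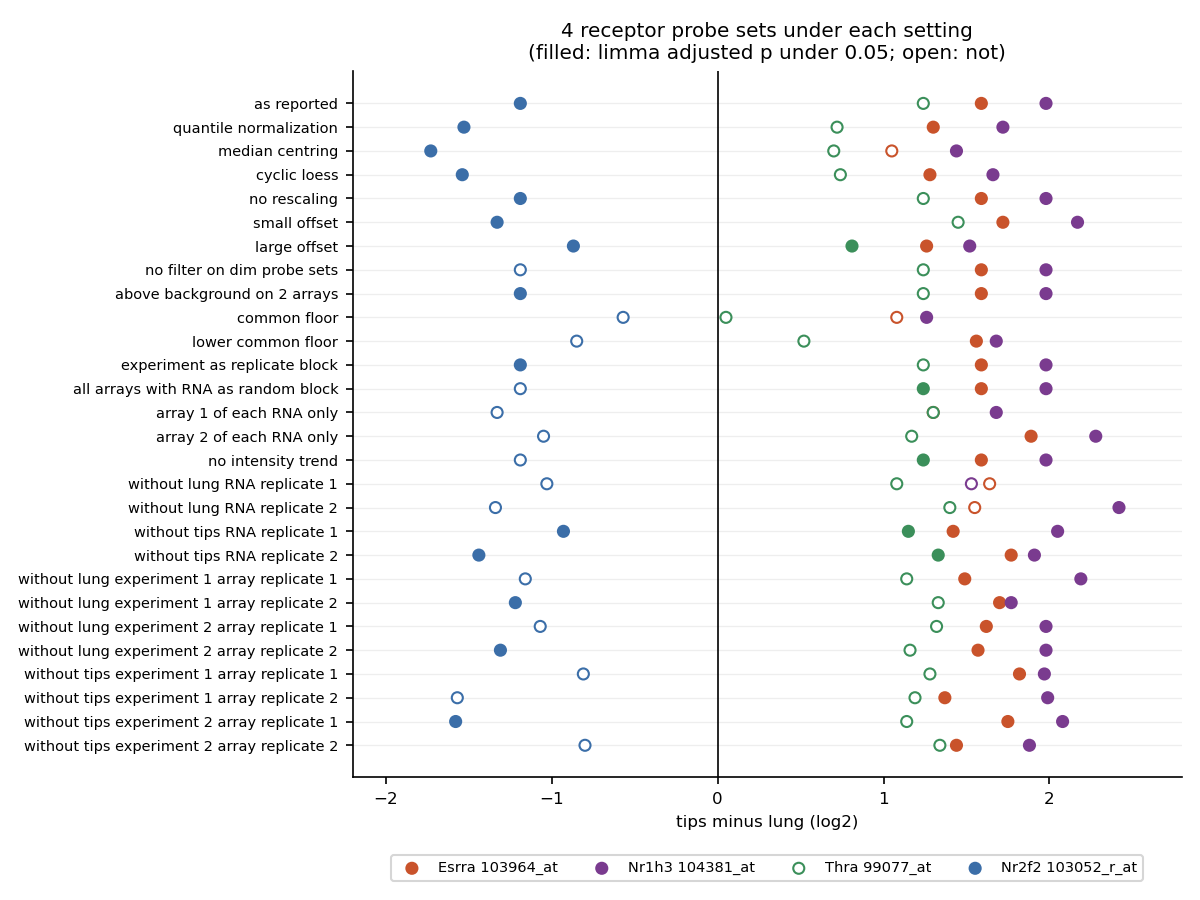
Difference of tips minus lung for 4 receptor probe sets as reported and under 27 other settings; filled points passed limma's threshold and open points did not. No point crosses 0, and the calls kept were 26 of 27 for Nr1h3 and 22 of 27 for Esrra, 13 of 27 for Nr2f2 and, for the dimmer probe set of Thra, which is open as reported, 5 of 27 passed.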

How the data were processed

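Per the labels' protocols, a PicoPure kit gave the RNA and a RiboAmp kit copied it before biotin labelling. An amplification step is listed for every tip array and for 1 lung array, while the design text describes it for both tissues. If the listing holds, amplification and tissue can hardly be told apart, and the part of amplification in the results was not tested. The values deposited are probe set intensities that the authors computed with MAS5, whose version the submitters' processing notes leave out, and they were already at a common level. Groups came from sample titles, because the tip samples carry a description that names whole lung. Detection calls were not used here.

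Each array was scaled to the common mean after trimming 2% at each end, the offset (10% of it) was added, and log2 was taken. The 66 control probe sets and the dimmest 40% were left out, which left 7453. Arrays of an RNA were averaged, and tips were set against lung by lmFit and eBayes with an intensity trend (limma 3.58.1, R 4.3.3), with 2 residual and 7.05 prior degrees of freedom and Benjamini-Hochberg adjustment. The p-values rest on spread between RNA samples, that of the probe set itself and, through the prior, that of all probe sets tested. The number of RNA samples limits the precision: the median standard error was 0.40. Probe sets were named from the platform annotation, where 10855 carry 1 symbol, 10839 updated by gene ID to the RefSeq table of GRCm38.p6.

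A fold written as at least N is a lower limit, used where a group had no array above background and the other had every array above it. Per dim array the higher of background and signal was taken, against the mean of the bright group. No fold is given where the brighter group had arrays under background. Every member gene is described, the brightest probe set first; from each list up to 4 genes past the threshold by smallest p were named, with others as called or well-known members chosen after their values were seen. The members, gene lists and tests were chosen with earlier results of these data known. The experiment number pairs tips and lung through shared processing in the design text; their deviations from the group means correlated at 0.0452. Alternatives covered scaling, offset, filter, floor, blocks, hybridisation time, moderation and leaving out each RNA or array.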

Additional observations from a re-analysis of the deposited data

Results flagged for a closer look

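Among the 42 groups of 4 arrays formed by the 21 tested receptor probe sets, 2 held an array far from the other 3, where chance alone marks about 1 in 20. For Nr2f1, array 2 of the lung RNA of experiment 2 read 10.84 in log2 of signal plus offset, a signal of 1680, while the other lung arrays lay between 10.10 and 10.17. For Thrb, array 2 of the lung RNA of experiment 1 read 8.27, a signal of 158, while the others lay between 9.64 and 9.86. Without these arrays the differences were -0.20 for Nr2f1 and 0.59 for Thrb.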

How the results depend on the processing

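Nr1h3, Esrra and Nr2f2 kept their direction under all 27 alternatives. Of 565 values of single receptor probe sets under these, 512 kept direction and side of the threshold, 20 lost the call, 19 gained it and 14 changed sign; the causes were not tested. The median receptor difference, 0.85, was 0.42 with quantile normalization, 0.31 with median centring, 0.37 with cyclic loess, 1.04 and 0.57 with the small and large offset, 0.13 with the common floor and 0.44 with a lower floor chosen after seeing the data. Over all probe sets the median was 0.35, and 0.03, -0.19 and 0.06 under the 3 scalings. Median centring called 271 higher and 1512 lower over all probe sets, quantile normalization 623 and 1012, cyclic loess 814 and 1138, against 1084 and 1022.

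Receptor increases numbered 1 with median centring, the common floor or the first arrays alone, and 4 with RNA as a random block or no intensity trend. Decreases numbered 0 without the filter on dim probe sets, with either floor, with the random block, on the first or the second arrays alone and without the trend. All calls numbered 822 with the common floor and 1229 on the first arrays. Leaving out an RNA or array gave 349 to 3324 calls, 0 to 6 receptor increases and 0 to 2 decreases: without the lung RNA of experiment 1 or 2 there were 349 and 556 calls, and without the tip RNA of experiment 1 or 2 2719 and 3324. In these fits a lone RNA is assumed to vary like the other group.

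Signs turned for Nr4a1 (-0.00063 with quantile normalization, -0.14 with median centring), the brightest Nr5a1 probe set (-0.09) and the brighter Thra one (-0.45) with median centring, Pgr on the first arrays (-0.26) and Nr1h4 on the second (0.07). Leaving out an RNA or array gave -0.61 to 0.25 for Nr1h4, -1.04 to 0.27 for Nr2f1 and -0.22 to 0.40 for Thra. With the experiment number as a replicate block, 2452 probe sets were called, 2098 of them shared with the 2106 reported; the block added the Nr5a1 probe set named above and changed no other receptor call. Of the 44 probe sets, 23 fell under the filter on mean signal and were not tested. Signal near background limits tested ones too, since only 7 of the 44 were above it on every array.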
